A study of Homo sapiens with 6 samples.

Results

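The genes described here are 38 antioxidant, glutathione and pentose phosphate genes, chosen by name and found in a table of 24154 genes. They were measured by poly(A) RNA-seq in a line labelled HCT116, an established human colorectal carcinoma line. The control group (NC, n = 3) had received a negative control siRNA and the other group (CPT2 knockdown, n = 3) an siRNA against CPT2, both for 48 h, and no other genotype, drug or clone is named. The labels number the libraries 1 to 3 in each group without saying whether they came from separate cultures, so a p-value here reflects the spread among these libraries alone, which may be technical. Every member was in the table, SOD2 under 2 Ensembl IDs. Of the 38 genes, 37 had enough counts to be tested, the exception being GPX2.

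NRF2, the product of NFE2L2, is a transcription factor that is bound in the cytosol by KEAP1 and handed over for degradation. When oxidants or electrophiles modify KEAP1, NRF2 accumulates and, with a small MAF partner, binds antioxidant response elements near genes for glutathione synthesis, the thioredoxin system, NADPH supply and detoxification. The pentose phosphate pathway supplies NADPH, with which glutathione reductase and the thioredoxin reductases keep glutathione and thioredoxin reduced. Peroxiredoxins and glutathione peroxidases in turn use these carriers to remove peroxides. Carnitine palmitoyltransferase 2, the product of CPT2, works upstream of mitochondrial fatty acid oxidation, a process that feeds electrons into the respiratory chain and is a source of reactive oxygen species.

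The antioxidant response element is shown first because it is the sequence by which many of these genes are grouped. A core of it, TGACNNNGC, was searched on both strands in the 250 bases before each RefSeq start (GRCh38.p14), without regard to overlap with other motifs such as AP-1 sites. Promoters were found for 30 of the 38 members, and 8 of these genes (26.7%) held the core at 1 start or more, against 15.6% of 10295 tested genes with a promoter in the same table. The 8 were PGD, GCLM, EPHX1, GSTO1, GSTP1, TXNRD1, GPX2 and KEAP1, of which GPX2 was not among the tested genes. Bases farther upstream were not searched, so a member not listed may still hold the core there. A match is a description of these letters and no measurement of binding. In the stretches below, written 5′ to 3′ on the strand of the gene, capitals mark the core or its reverse complement. Both TXNRD1 starts are shown, at chr12:104215645-104215723 and chr12:104286895-104286973 on the plus strand, because TXNRD1 was the member that was lower in the knockdown at an unadjusted p under 0.05. GCLM lies at chr1:93909431-93909499 on the minus strand. GSTP1, EPHX1 and PGD, which were higher in the knockdown, lie on the plus strand at chr11:67583711-67583789, chr1:225825241-225825319 and chr1:10398828-10398906.
TXNRD1 upstream start: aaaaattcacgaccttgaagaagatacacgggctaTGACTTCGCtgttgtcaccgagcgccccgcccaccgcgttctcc
TXNRD1 downstream start: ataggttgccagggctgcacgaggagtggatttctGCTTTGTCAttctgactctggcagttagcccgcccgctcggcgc
GCLM: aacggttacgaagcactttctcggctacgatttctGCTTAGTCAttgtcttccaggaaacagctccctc
GSTP1: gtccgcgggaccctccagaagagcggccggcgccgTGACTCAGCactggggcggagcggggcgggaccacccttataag
EPHX1: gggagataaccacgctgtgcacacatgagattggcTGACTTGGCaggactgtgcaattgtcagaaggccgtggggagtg
PGD: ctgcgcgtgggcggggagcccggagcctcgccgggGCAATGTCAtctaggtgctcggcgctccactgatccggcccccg
The core ended 91 and 94 bases before the upstream and downstream TXNRD1 starts, 26 before GCLM, 58 before GSTP1, 70 before 1 of 3 EPHX1 starts in the table and 193 before PGD. Members holding the core thus stood on both sides of 0 in the values below.

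Libraries held 28353790 to 29449380 counts. CPT2 itself had 23.6, 28.6 and 29.1 CPM (library-scaled counts, TMM) in NC replicates 1 to 3 and 19.4, 21.3 and 19.0 CPM in knockdown replicates 1 to 3. The groups did not overlap, and the log2 fold change of -0.44 (SE 0.17) had an adjusted p of 0.338 by edgeR and an exact 2-sided permutation p of 0.1, the smallest that 3 against 3 allow. With offsets for transcript GC content and length it was 0.017 (adjusted p = 0.976). CPT2 knockdown replicate 1 stood apart on the first principal component, at 76.6 against -44.6 to 16.0 in the other libraries, so values are also given without it. In that library 10 tested transcripts known to be retained in the nucleus or to keep introns, taken here as a sign of RNA quality, had a median of -0.91 on the log2 scale against the NC mean, and -0.075 and -0.32 in knockdown replicates 2 and 3. Their median GC content was 36.7%. All tested genes below the median GC content of 48.9% had medians of -0.59, -0.044 and -0.20 in knockdown replicates 1 to 3. Whether the low values went with RNA quality or with GC content was not tested. Mitochondrially encoded genes held 17.0%, 15.6% and 8.99% of counts in knockdown replicates 1 to 3, against 10.0% to 10.8% in NC. Of 8 epithelial and colorectal markers, KRT8 and KRT18 had 610 to 1433 CPM, CLDN7 37.4 to 61.6, EPCAM 2.68 to 4.32 and CDH1 1.03 to 2.90 CPM, LGALS4 reached 1.03 and VIL1 0.107 CPM, and CDX1 was at 0 in all 6 libraries. The general epithelial keratins were thus high, EPCAM and CDH1 low, and the intestinal markers VIL1 and CDX1 at or near 0. Summed fibroblast markers were 61.4 to 80.6 CPM in NC and 79.7 to 132 in the knockdown, nearly all COL1A1, with LUM at 0. Immune markers were 21.3 to 23.0 and 29.5 to 31.8 CPM, nearly all CD68, with LYZ at 0 and CD3E at 0 in 5 of 6 libraries. Endothelial markers were 72.8 to 89.4 and 53.6 to 70.2 CPM, nearly all CDH5, with PECAM1 under 1 CPM. These low intestinal and adhesion markers, with COL1A1, CDH5 and CD68 present, sit poorly with the label, and the identity of the line was not tested. The part of these markers, of the mitochondrial share and of RNA quality in the results below was not tested, and in bulk libraries fewer cells of a type and less RNA per cell cannot be told apart.

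No member passed the test over all genes, made here without a block on the replicate number. By edgeR, 0 of the 37 tested members had an adjusted p under 0.05, against 2 of 15302 genes (0.0131%), and DESeq2, limma-voom and limma-trend on FPKM also called 0 members, with 6, 7 and 2 higher and 1, 1 and 2 lower at an unadjusted p under 0.05. Of all genes, 7.57%, 7.97% and 4.26% were higher and 6.24%, 7.12% and 9.17% lower by these tools. At an unadjusted p under 0.05, edgeR found 7 members, of which PRDX2, EPHX1, GSTP1, GPX1, TXN2 and TALDO1 were higher in the knockdown and TXNRD1 was lower. The 6 higher members were 16.2% of those tested, where 9.18% of all tested genes were higher at that p, and the 1 lower member was 2.70%, where 5.29% of all genes were lower. On library size alone, which moved the median of all tested genes from 0.008 to -0.129, the split was 2 higher (EPHX1 and PRDX2; 5.41% against 3.8% of all genes) and 3 lower (TXNRD1, SOD2 and ABCC1; 8.11% against 9.4%). Without CPT2 knockdown replicate 1 it was again 6 higher and 1 lower (5.09% and 4.96% of all genes), with MGST1 and TKT in place of GPX1 and TXN2. Other single libraries moved the count of higher members more, and the share over all genes with it. It was 4 (5.18% of all genes), 0 (2.41%) and 2 (5.32%) without NC replicates 1, 2 and 3, and 13 (18% of all genes) and 1 (6.26%) without CPT2 knockdown replicates 2 and 3. The count of lower members was 0 without NC replicate 1, 2 or 3 (3.28%, 0.821% and 2.51% of all genes), and 4 (17.9%) and 1 (2.93%) without CPT2 knockdown replicates 2 and 3. With the GC content and length offsets 3 were higher (MGST1, EPHX1 and TKT; 8.11% against 7.18% of all genes) and TXNRD1 alone was lower (5.82% of all genes).

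The 2 groups of libraries did not overlap in CPM for 7 members that were higher in the knockdown, namely PRDX2, PGD, TALDO1, TKT, MGST1, GSTP1 and EPHX1, or 18.9% of those tested, where 12.2% of all genes were so. They did not overlap for 2 that were lower, TXNRD1 and SOD2, or 5.41% against 12.2% of all genes. Over the 37 members the median log2 fold change was 0.17, with 23 higher and 14 lower, where the median of all tested genes was 0.008. With the offsets it was 0.023 (21 higher, 16 lower) and without CPT2 knockdown replicate 1 it was 0.15 (24 higher, 13 lower). Other settings also moved it by over 1.5 times, in part with the median of all genes. On library size alone it was 0.036, against -0.129 over all tested genes. By limma-trend on log2(FPKM + 1) and log2(FPKM + 0.1) it was 0.057 and 0.058, against -0.072 and -0.119. The median of the members was 0.037 with the offsets and without CPT2 knockdown replicate 1. It was 0.069 without CPT2 knockdown replicate 3, 0.097 without NC replicate 2 and 0.27 without NC replicate 1.

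**Figure D1:**
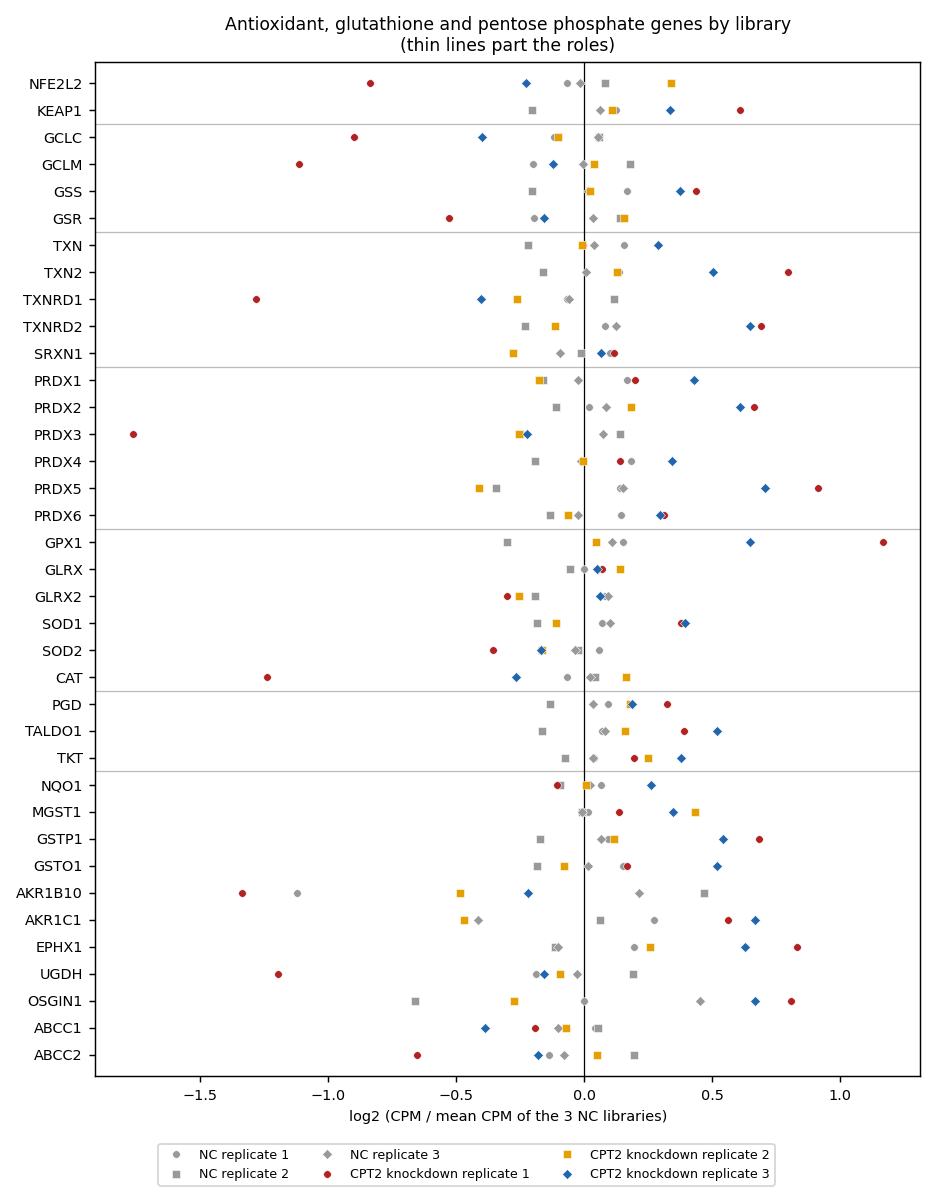
Each row is a tested member, and each point is its CPM in 1 library as the log2 ratio to the mean of the 3 NC libraries (grey, NC; red, orange and blue, CPT2 knockdown replicates 1, 2 and 3), with thin lines between the roles. Red points lie farthest out in many rows, with PRDX3 at -1.76 and GPX1 at 1.17, while the orange and blue points of TXNRD1 also lie left of all 3 grey ones.

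In the thioredoxin system TXNRD1 was lower in the knockdown in all 16 alternatives tried, without a call in any. TXNRD1 encodes thioredoxin reductase 1, the cytosolic selenoprotein that reduces thioredoxin with NADPH (ENSG00000198431, chromosome 12, 104215779 to 104350305, plus strand, GRCh38). Its level was 741, 841 and 744.5 CPM in NC replicates 1 to 3 and 319, 647 and 587 CPM in knockdown replicates 1 to 3. All 3 knockdown libraries were below every control, replicate 1 by the most. On the log2 scale the knockdown differed from NC by -0.58 (SE 0.24, 95% interval -1.13 to -0.04, edgeR unadjusted p = 0.0382, adjusted p = 0.338). It was -0.34 without CPT2 knockdown replicate 1 (SE 0.12, edgeR unadjusted p = 0.0187), -0.38 with the GC content and length offsets (SE 0.14, unadjusted p = 0.0252) and -0.22 with both (SE 0.09, unadjusted p = 0.0304). Over the alternatives the adjusted p ranged from 0.0502 to 0.772. Without NC replicate 1, 2 or 3 the unadjusted edgeR p was 0.0636, 0.0976 and 0.0648.

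For TXNRD2, the mitochondrial thioredoxin reductase, the difference was 0.45 on the log2 scale (SE 0.23) and 0.061 with the offsets. TXN, the cytosolic thioredoxin that TXNRD1 reduces, had 312, 241 and 287 CPM in NC and 279.5, 279 and 342 CPM in the knockdown, with overlapping groups and a log2 fold change of 0.099 (95% interval -0.25 to 0.45). TXN2, the mitochondrial thioredoxin, had 40.1, 32.7 and 36.6 CPM in NC and 63.4, 39.9 and 51.7 CPM in the knockdown. Knockdown replicate 2 lay just under the highest control. The TXN2 log2 fold change of 0.50 (SE 0.20, edgeR unadjusted p = 0.0342) was 0.32 without CPT2 knockdown replicate 1 and 0.16 with the offsets, neither at an unadjusted p under 0.05. SRXN1, sulfiredoxin, which repairs over-oxidised peroxiredoxins, had 54.5, 50.3 and 47.6 CPM in NC and 55.0, 41.9 and 53.2 CPM in the knockdown. Its log2 fold change was -0.022 (95% interval -0.40 to 0.35).

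None of the 3 pentose phosphate members was called. In CPM all 3 were higher in every knockdown library than in any control, where 12.2% of all tested genes were so. In FPKM only TALDO1 was so. TKT ran from 369.8 to 513.4 FPKM in NC and 471.5 to 614 in the knockdown. PGD ran from 125.6 to 141.8 FPKM in NC and 141.7 to 149.3 in the knockdown. Of 10 tested pentose phosphate genes outside the members, 3 were positive and 7 negative, with a median log2 fold change of -0.20 against 0.28 for the 3 members. The sign of the 3 members held in all 16 alternatives. TKT, transketolase, a non-oxidative branch enzyme (ENSG00000163931, chromosome 3, 53224707 to 53256052, minus strand), had 1162, 1076 and 1161 CPM in NC and 1299, 1348 and 1470 CPM in the knockdown. Its log2 fold change was 0.28 (SE 0.12, edgeR unadjusted p = 0.0546, adjusted p = 0.338). It kept that size without CPT2 knockdown replicate 1 (0.30, unadjusted p = 0.0243), with the offsets (0.26, unadjusted p = 0.0493) and with both (0.36, unadjusted p = 0.00357), with adjusted p-values of 0.141 to 0.772 over all alternatives. On library size alone it was 0.14. TALDO1, transaldolase, another enzyme of that branch (ENSG00000177156, chromosome 11, 747329 to 765024, plus strand), had 191, 163 and 193 CPM in NC and 239, 204 and 261 CPM in the knockdown. The TALDO1 log2 fold change of 0.36 (SE 0.15, edgeR unadjusted p = 0.0366) was 0.34 without CPT2 knockdown replicate 1 and 0.001 with the offsets. PGD, 6-phosphogluconate dehydrogenase, which makes NADPH in the oxidative branch (ENSG00000142657, chromosome 1, 10398592 to 10420144, plus strand), had 276, 236 and 265 CPM in NC and 324, 292 and 295 CPM in the knockdown. The PGD log2 fold change was 0.23 (SE 0.13) and 0.023 with the offsets. The TKT difference was thus about as large with the GC content and length offsets as without, and those of TALDO1 and PGD were near 0 with them.

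**Figure D2:**
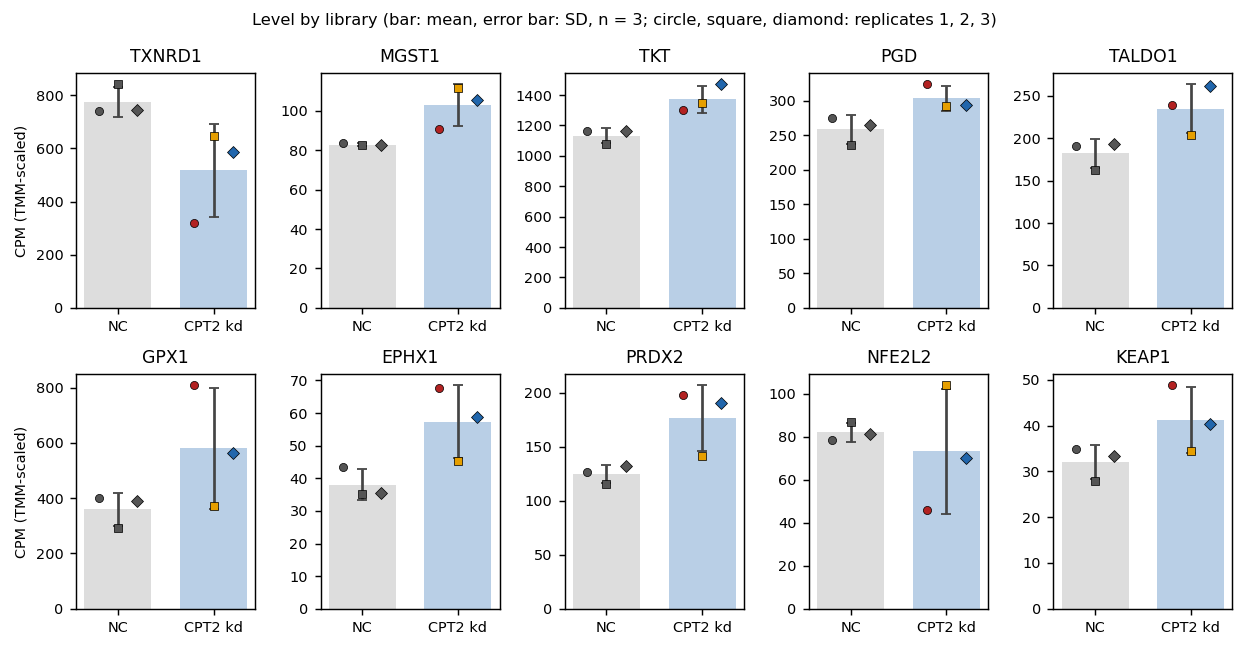
Bars give the mean CPM of 3 libraries with its SD, and points the libraries (circle, square and diamond for replicates 1, 2 and 3), for 10 members in NC and in the CPT2 knockdown (kd). TXNRD1 points of the knockdown lie below all NC points and those of MGST1, TKT, PGD, TALDO1, EPHX1 and PRDX2 above them, while GPX1, NFE2L2 and KEAP1 overlap.

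The sensor pair showed no difference beyond its spread. NFE2L2 (ENSG00000116044, chromosome 2, 177227595 to 177392697, minus strand) had 78.3, 86.8 and 81.0 CPM in NC and 45.9, 103.8 and 70.1 CPM in the knockdown. Knockdown replicate 1 was the lowest of the 6 libraries and knockdown replicate 2 the highest. The log2 fold change was -0.16 (95% interval -0.76 to 0.43) and 0.075 without CPT2 knockdown replicate 1. KEAP1 (ENSG00000079999, chromosome 19, 10486120 to 10503741, minus strand) had 34.9, 27.8 and 33.4 CPM in NC and 48.8, 34.5 and 40.4 CPM in the knockdown, with knockdown replicate 2 inside the NC range. The KEAP1 log2 fold change of 0.36 (SE 0.19) was 0.036 with the offsets.

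Glutathione synthesis and reduction likewise gave no gene at an unadjusted p under 0.05. GCLC, the catalytic subunit of glutamate-cysteine ligase and the rate-limiting step of glutathione synthesis, had 49.1, 55.4 and 55.3 CPM in NC and 28.6, 49.6 and 40.4 CPM in the knockdown. The log2 fold change was -0.43 (SE 0.21, edgeR unadjusted p = 0.0728) and -0.25 without CPT2 knockdown replicate 1. GCLM, the modifier subunit, had 57.1, 74.3 and 65.6 CPM in NC and 30.4, 67.4 and 60.4 CPM in the knockdown, so that replicates 2 and 3 lay within the controls. The log2 fold change of GCLM was -0.32 (SE 0.28), -0.050 without CPT2 knockdown replicate 1 and 0.079 with the offsets. GSS, glutathione synthetase, which adds glycine in the last step, had 0.29 (SE 0.17), or 0.20 without CPT2 knockdown replicate 1. GSR, glutathione reductase, had -0.15 (SE 0.20), or -0.003 without CPT2 knockdown replicate 1.

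Peroxiredoxins, the thiol peroxidases that remove most cellular hydrogen peroxide, split between PRDX3, which was lower, and the other 5, which were higher, except that PRDX1, PRDX4 and PRDX5 were at -0.087, -0.12 and -0.080 with the offsets. PRDX2, a cytosolic peroxiredoxin (ENSG00000167815, chromosome 19, 12796820 to 12801859, minus strand), had 127, 116 and 133 CPM in NC and 198, 142 and 190 CPM in the knockdown. All knockdown libraries were above the controls, replicate 2 by the least. The PRDX2 log2 fold change of 0.50 (SE 0.16, edgeR unadjusted p = 0.0135, adjusted p = 0.338) was 0.40 without CPT2 knockdown replicate 1 and 0.15 with the offsets. PRDX1, the most abundant peroxiredoxin, had 827, 659 and 724 CPM in NC and 846, 652 and 992 CPM in the knockdown, with overlapping groups and a log2 fold change of 0.17 (95% interval -0.23 to 0.57). Its exons share 379 bases with MMACHC on the opposite strand, and reads of the pair cannot be separated where strand was not used. PRDX4, of the endoplasmic reticulum, PRDX5 and PRDX6, the 1-cysteine enzyme, had 0.17 (SE 0.16), 0.51 (SE 0.31) and 0.19 (SE 0.15). Of these, PRDX5 had 330 and 286 CPM in knockdown replicates 1 and 3 but 132 CPM in replicate 2, below every control.

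PRDX3, the mitochondrial peroxiredoxin, named after its values were seen, had 107, 139 and 133 CPM in NC and 37.2, 106 and 108 CPM in the knockdown. Replicate 1 was far below the other 5 libraries, and replicate 3 was just above the lowest control. Its log2 fold change was -0.59 (SE 0.35), -0.25 without CPT2 knockdown replicate 1 and -0.54 with the offsets, none at an unadjusted p under 0.05.

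The peroxidases and dismutases were of mixed direction. GPX1, the cytosolic selenium-dependent glutathione peroxidase (ENSG00000233276, chromosome 3, 49357171 to 49358600, minus strand), had 400.1, 292 and 389 CPM in NC and 808, 372 and 564 CPM in the knockdown. Knockdown replicate 2 lay within the controls and replicate 1 was the highest. The GPX1 log2 fold change of 0.69 (SE 0.26, edgeR unadjusted p = 0.0279) was the highest of the 37, and it was 0.37 without CPT2 knockdown replicate 1 and 0.074 with the offsets. GPX2, the gastrointestinal glutathione peroxidase, had counts of 0, 0 and 3 in NC and 3, 3 and 0 in the knockdown, too few for a test or a fold.

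SOD2, the manganese superoxide dismutase of the mitochondrial matrix, had 220.2, 209 and 207 CPM in NC and 166, 189 and 189 CPM in the knockdown, without overlap. The log2 fold change was -0.23 (SE 0.13, edgeR unadjusted p = 0.111), -0.17 without CPT2 knockdown replicate 1 and 0.22 with the offsets, so its sign depended on the correction. These values are for ENSG00000112096, whose exons share 298 bases with WTAP on the opposite strand and 845 with the second SOD2 ID, ENSG00000285441, which held 1 to 11 counts. SOD1, the copper-zinc enzyme of the cytosol, had 125, 105 and 128 CPM in NC and 155, 111 and 157 CPM in the knockdown (log2 fold change 0.24, SE 0.17). CAT, catalase of the peroxisome, had 19.2 CPM in knockdown replicate 1 against 43.3 to 46.7 in NC, and 50.8 and 37.7 CPM in replicates 2 and 3. For CAT the log2 fold change was -0.34 (SE 0.30), or -0.046 without CPT2 knockdown replicate 1. GLRX and GLRX2, the cytosolic and mitochondrial glutaredoxins, had 0.086 (SE 0.15) and -0.15 (SE 0.18), and GLRX2 shares 481 exon bases with TROVE2 on the opposite strand.

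Among detoxification genes, MGST1 was higher in CPM in all knockdown libraries. Its log2 fold change stayed near that size with the offsets and without CPT2 knockdown replicate 1. MGST1 encodes microsomal glutathione S-transferase 1, a membrane enzyme that conjugates glutathione and reduces lipid peroxides (ENSG00000008394, chromosome 12, 16347142 to 16609259, plus strand). Its level was 83.8, 82.6 and 82.6 CPM in NC and 91.1, 112 and 105.5 CPM in the knockdown. The log2 fold change was 0.31 (SE 0.14, edgeR unadjusted p = 0.0535, adjusted p = 0.338). It was 0.38 without CPT2 knockdown replicate 1 (SE 0.11, unadjusted p = 0.00636), 0.41 with the offsets (SE 0.09, unadjusted p = 0.00109) and 0.36 with both (unadjusted p = 0.00125). The edgeR adjusted p over the alternatives was 0.153 to 0.772. The MGST1 log2 fold change was smaller on library size alone (0.18) and by limma-trend on log2(FPKM + 1) (0.17). In FPKM the groups overlapped, at 88.9 to 91.0 in NC and 82.6 to 115.5 in the knockdown.

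EPHX1, microsomal epoxide hydrolase (ENSG00000143819, chromosome 1, 225810092 to 225845563, plus strand), had 43.6, 35.2 and 35.5 CPM in NC and 67.7, 45.5 and 58.8 CPM in the knockdown, without overlap. For EPHX1 the log2 fold change of 0.59 (SE 0.19, edgeR unadjusted p = 0.0137, adjusted p = 0.338) was 0.44 without CPT2 knockdown replicate 1 and 0.26 with the offsets (unadjusted p = 0.0423). In the authors' deposited table EPHX1 was the 1 member called up, at a log2 fold change of 0.59 (their unadjusted p, 0.00524). GSTP1, the pi-class glutathione S-transferase, had 392, 326 and 385 CPM in NC and 591, 399 and 535 CPM in the knockdown. The GSTP1 log2 fold change of 0.47 (SE 0.17, edgeR unadjusted p = 0.0233) was 0.33 without CPT2 knockdown replicate 1 and -0.028 with the offsets. NQO1, the quinone reductase often read as a marker of NRF2 activity, had 262, 234 and 254 CPM in NC and 232, 251 and 299.6 CPM in the knockdown. The NQO1 groups overlapped, with a log2 fold change of 0.062 (95% interval -0.26 to 0.38).

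AKR1C1, an aldo-keto reductase whose close paralogs could share its reads, had 22.4, 19.4 and 13.9 CPM in NC and 27.4, 13.4 and 29.5 CPM in the knockdown. AKR1B10, a related reductase, was near the limit of counting at 11, 34 and 29 counts in NC and 8, 16 and 20 counts in the knockdown (log2 fold change -0.60, SE 0.51). UGDH, which makes the UDP-glucuronate used in conjugation, had -0.40 (SE 0.27), or -0.13 without CPT2 knockdown replicate 1 and -0.18 with the offsets. GSTO1, an omega-class transferase, had 0.22 (SE 0.19), or 0.050 without CPT2 knockdown replicate 3, and OSGIN1, an oxidative stress-induced growth inhibitor, 0.47 (SE 0.36), or 0.26 without CPT2 knockdown replicate 1. ABCC1 and ABCC2, pumps that export glutathione conjugates, had -0.21 (SE 0.14) and -0.23 (SE 0.20). ABCC1 was -0.22 with the offsets, -0.23 and -0.13 without CPT2 knockdown replicates 1 and 3 and -0.35 on library size alone. ABCC2 was 0.041 with the offsets and -0.071 without CPT2 knockdown replicate 1.

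Levels between members are compared on the authors' FPKM, which are scaled by length. In NC, PRDX1 was the highest at 742 ± 63.0 FPKM (SD, n = 3), followed by GSTP1 at 459 ± 39.8, TKT at 456 ± 76.1, GPX1 at 370.0 ± 66.0, TXN at 318 ± 36.3 and PRDX6 at 276 ± 21.3. GSTP1 and TKT lay within each other's SD. TXNRD1 had 196 ± 17.3 FPKM and its mitochondrial relative TXNRD2 33.4 ± 4.65 FPKM. At the low end were AKR1C1 at 2.78 ± 0.542, OSGIN1 at 2.26 ± 0.826, AKR1B10 at 0.485 ± 0.248 and GPX2 at 0.0251 FPKM. PRDX1, GSTP1 and TKT thus had the highest mean FPKM of the members in NC. There TKT (369.8 to 513.4) and GPX1 (304.7 to 436.6) overlapped. In the knockdown the mean of GPX1 (570.1 ± 161.5 FPKM) was above that of TKT (544.2 ± 71.3).

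**Figure D3:**
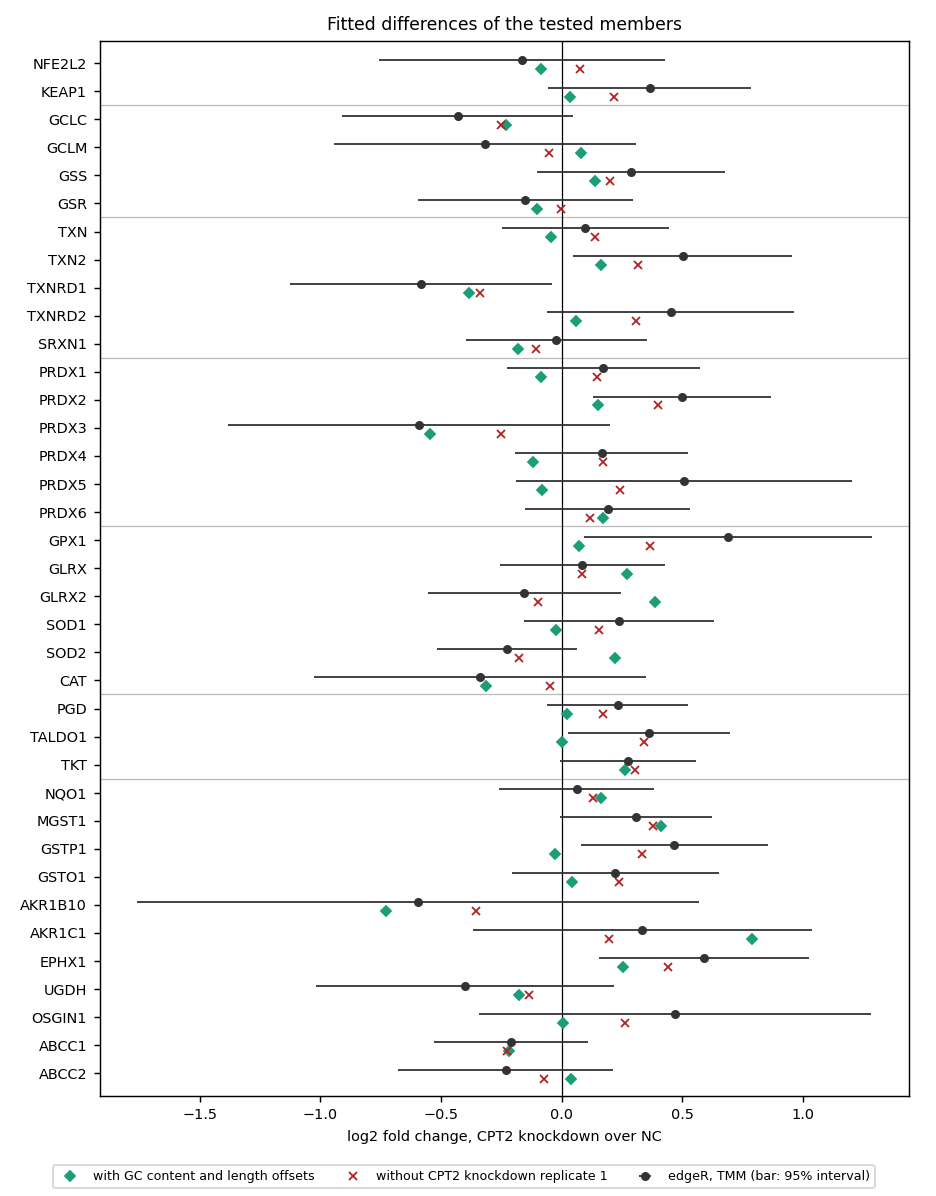
For each tested member, the dot is the edgeR log2 fold change of the CPT2 knockdown over NC with its 95% interval, the diamond the same with GC content and length offsets and the cross the same without CPT2 knockdown replicate 1. Intervals of PRDX2, EPHX1, GSTP1, GPX1, TXN2, TALDO1 and TXNRD1 leave out 0, and the diamonds of GPX1, TALDO1 and GSTP1 lie near 0 while those of TXNRD1, MGST1 and TKT do not.

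Across members, the sign of the difference went with the GC content of the transcript. Of the 18 members at or above the median of tested genes (48.9% GC), 16 were higher in the knockdown, with a median log2 fold change of 0.36. Of the 19 below it, 12 were lower, with a median of -0.16. The 13207 tested Ensembl genes, split at the same GC content, had medians of 0.26 and -0.26. Set against the NC mean, the GC-rich members had medians of 0.52, 0.035 and 0.46 in the 3 knockdown libraries in order, and the others -0.52, -0.062 and -0.13. The rank correlation (Spearman) of GC content with the log2 difference was 0.73 over the 37 members and 0.68 over all genes, given as a description because genes of 1 library share its base composition and are not independent. With the offsets it was -0.032 over the members, of which 10 of 19 and 11 of 18 were then higher below and above the median. TXNRD1 (44.8% GC) and MGST1 (42.3%) are both AT-rich and stood on opposite sides, and TKT (56.0%) is GC-rich.

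**Figure D4:**
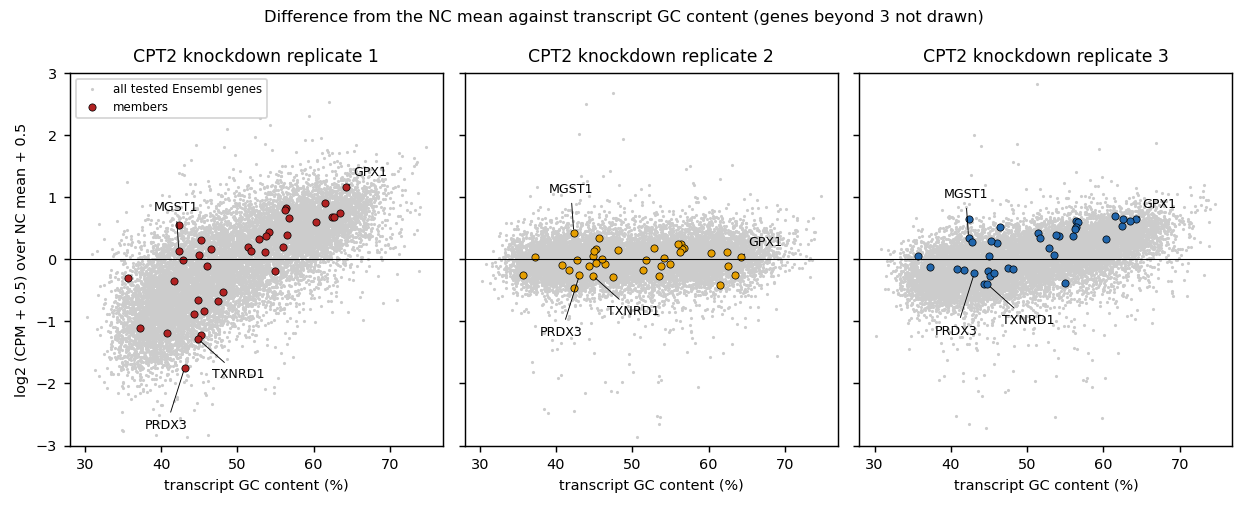
Each panel plots the log2 ratio of 1 knockdown library to the NC mean against the GC content of a gene's longest transcript, with all tested Ensembl genes in grey and the members in colour. The members follow the slope of the other genes in replicates 1 and 3, and replicate 2 is nearly flat, with MGST1 above and TXNRD1 below 0 in all 3.

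Other genes of these pathways, listed separately from the members, had no adjusted p under 0.05 by edgeR without a block on the replicate number either. The authors' deposited table has GPX4 and PGLS up and ABCC4 down. Its calls did not rest on the unadjusted DESeq2 p alone. ABCC4 had a p of 0.00863 (log2 fold change -0.66) there, and PRDX2, which was not called, 0.0080 (log2 fold change 0.50). Of 11 NRF2 regulators, all tested, BACH1, a repressor at antioxidant response elements, had 36.0, 42.1 and 37.2 CPM in NC and 17.2, 32.1 and 25.5 CPM in the knockdown (log2 fold change -0.62, SE 0.23, edgeR unadjusted p = 0.0254). It was -0.42 without CPT2 knockdown replicate 1 and -0.20 with the offsets. No other gene of that list had an unadjusted p under 0.05, so 1 of 11 was lower (9.09% against 5.29% of all genes) and 0 higher (against 9.18%). Of 23 tested NRF2 target and detoxification genes outside the members, 4 were higher (17.4% against 9.18% of all genes) and 1 lower (4.35% against 5.29%) at that p. FTL, the ferritin light chain, had 0.50 (SE 0.19), BLVRB, biliverdin reductase B, 0.53 (SE 0.16) and ABCC4, an export pump, -0.66 (SE 0.24), or 0.087, 0.13 and -0.35 with the offsets.

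Of 24 tested glutathione genes outside the members, 3 were higher at an unadjusted p under 0.05 (12.5% against 9.18% of all genes) and 0 lower (against 5.29%). The groups did not overlap in CPM for 8 that were higher (33.3%) and 1 that was lower (4.17%), each against 12.2% of all genes. The median log2 fold change of the list was 0.26, against 0.008 over all tested genes. GPX4, which reduces lipid hydroperoxides in membranes, had 166, 121 and 163 CPM in NC and 349.9, 209 and 240.4 CPM in the knockdown (log2 fold change 0.83, SE 0.22, 0.29 with the offsets). MGST3, a relative of MGST1, had 162, 145 and 155 CPM in NC and 261, 229.8 and 186 CPM in the knockdown. Its log2 fold change was 0.55 (SE 0.16), 0.42 without CPT2 knockdown replicate 1 and 0.77 with the offsets. GSTM3, a mu-class transferase, had 0.38 (SE 0.16) and 0.60 with the offsets.

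Among 19 further thioredoxin and antioxidant genes, 1 was higher (5.26% against 9.18% of all genes) and 3 were lower (15.8% against 5.29%) at an unadjusted p under 0.05. TXNIP, which binds and inhibits thioredoxin, had -0.45 (SE 0.15) and -0.29 with the offsets, MSRB3, a methionine sulfoxide reductase, -0.66 (SE 0.26), and SELENOW, a small selenoprotein, 0.57 (SE 0.24). Without CPT2 knockdown replicate 1 the last pair had -0.43 and 0.34. Of the 10 pentose phosphate genes outside the members, 2 were higher (20% against 9.18% of all genes) and 1 lower (10% against 5.29%) at that p. PGLS, the lactonase that precedes PGD in the oxidative branch, had 44.0, 36.2 and 41.5 CPM in NC and 84.2, 58.4 and 65.3 CPM in the knockdown (log2 fold change 0.77, SE 0.18, 0.29 with the offsets). RPIA, the isomerase that forms ribose 5-phosphate, had -0.42 (SE 0.18), or -0.52 with the offsets. Of 10 other NADPH sources, 2 were lower at that p (20% against 5.29% of all genes) and 0 higher (against 9.18%). These were NADK2, the mitochondrial NAD kinase, and NNT, the transhydrogenase, at -0.44 (SE 0.18) and -0.69 (SE 0.29), or -0.037 and -0.31 with the offsets. Each of these lists had members on both sides of 0, and their medians ran from -0.20 to 0.26. Groups also did not overlap in CPM for 0 higher and 3 lower of the 11 NRF2 regulators (0% and 27.3%). For the NRF2 targets these were 5 and 1 of 23 (21.7% and 4.35%). For the further thioredoxin and antioxidant genes they were 0 and 4 of 19 (0% and 21.1%). The pentose phosphate genes had 3 and 4 of 10 (30% and 40%) and the NADPH sources 0 and 3 of 10 (0% and 30%). Each share stands against 12.2% of all genes.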

How the data were processed

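For each gene and library the authors' table gives a raw count and an FPKM value, per the file headers, along with a DESeq2 p-value and log2 fold change of their own. The submitters' processing notes name the build GRCh38 and the tools edgeR, DESeq2, StringTie, HISAT2, Bowtie2 and TopHat2, with no role for any. Whether counting used strand is not stated in the sources used here. Left out were 17 stray lines without values. New loci without a symbol (4180) held 5.32% to 7.18% of counts and stayed in the tests.

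Counts were tested across all genes in R 4.3.3 with edgeR 4.0.16 (filterByExpr, TMM, robust quasi-likelihood F-test, Benjamini-Hochberg over 15302 genes, threshold 0.05). SDs and CPM are over n = 3 libraries. Alternatives were DESeq2 1.42.0, limma-voom and limma-trend on log2(FPKM + 1) or log2(FPKM + 0.1) with limma 3.58.1, RLE factors, library size alone, no filter, a block on the replicate number, each library left out in turn, and offsets from a loess (span 0.3) of each library on GC content and log2 length of the longest GENCODE 29 transcript, which keep the 13207 genes with an annotation. The offsets without CPT2 knockdown replicate 1 were added after seeing the data. Tests were checked on simulated data with 200 changed genes. There edgeR recovered 4.48% of genes changed 1.5-fold, 44.8% of those changed 2-fold and 97.0% of those changed 4-fold. It also called 11 genes that had not been changed, and DESeq2 called 39 such genes. The highest fold of a member was 1.61 (GPX1), so in this simulation changes of the size fitted for the members would mostly have been missed. The replicates of a group differed by more than counting noise.

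Values in every library are given for 18 members named by rule and for members with an unadjusted p under 0.05 or groups without overlap, and up to 3 genes of each other list by smallest p, of which 1 is not reported here. PRDX3, CAT and PRDX5 were named after their values were seen. The members and lists were chosen with earlier results of these data known.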

Additional observations from a re-analysis of the deposited data

How the results depend on the processing

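Of the 37 tested members, 20 kept their direction in all 16 alternatives, among them TXNRD1, GCLC, PRDX2, PRDX3, TKT, TALDO1, PGD, MGST1 and EPHX1. The median over the 37 members was 0.17, and ran from 0.023 with GC content and length offsets to 0.27 without NC replicate 1, against an SD of 0.15 over the knockdown libraries. The count of members higher at an unadjusted p under 0.05 was 6, and 2 on library size alone, 3 with GC content and length offsets, 2 with these offsets and without CPT2 knockdown replicate 1, 2 by limma-trend on log2(FPKM + 1) and on log2(FPKM + 0.1), and 0 to 13 on leaving out 1 library (0, 2, 13 and 1 without NC replicates 2 and 3 and CPT2 knockdown replicates 2 and 3). The count lower was 1, and 3 on library size alone, 2 by limma-trend with either pseudocount and 0 to 4 on leaving out 1 library (0 without NC replicate 1, 2 or 3, and 4 without CPT2 knockdown replicate 2). Genes called over all tested were 2, and 13 by DESeq2, 1 by limma-voom, 0 by limma-trend with either pseudocount, 4 with offsets and without CPT2 knockdown replicate 1 and 1 to 5 on leaving out 1 library.

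With the replicate number as a block, 633 genes and 1 member, GPX1 (log2 fold change 0.63, adjusted p = 0.0482), were called, with 11 members higher (29.7% against 14.7% of all genes) and 5 lower (13.5% against 16%) at an unadjusted p under 0.05. Outside the members the block called BLVRB, FTL, GPX4, MGST3, PGLS and NNT, with adjusted p from 0.0475 to 0.0497. Same-numbered libraries correlated at 0.25, 0.36 and 0.0065 in their deviations from the group means. Each knockdown library correlated best with its own number, the third by little (0.0065 against 0.0042 with NC replicate 1). The third pair was thus near 0, and NC replicate 3 correlated best with CPT2 knockdown replicate 1 (0.091). A pairing is not settled by these values, and the samples are taken to share only a number.

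Directions reversed as follows, with the adjusted p past the threshold in none. With the GC content and length offsets, CPT2 had 0.017, GCLM 0.079, TXN -0.045, PRDX1 -0.087, PRDX4 -0.12, PRDX5 -0.08, GLRX2 0.39, SOD1 -0.023, SOD2 0.22, GSTP1 -0.028 and ABCC2 0.041. With the offsets and without CPT2 knockdown replicate 1, NFE2L2 had 0.092, GCLM 0.15, GSR 0.011, TXN -0.013, PRDX1 -0.055, PRDX4 -0.043, PRDX5 -0.15, GPX1 -0.025, GLRX2 0.12, SOD1 -0.031, SOD2 0.077, OSGIN1 -0.014 and ABCC2 0.10. On library size alone, TXN had -0.033, GLRX -0.052 and NQO1 -0.069. By limma-trend on log2(FPKM + 1) and log2(FPKM + 0.1), TXN had -0.027 and -0.027, GLRX -0.044 and -0.046, GLRX2 0.24 and 0.26, SOD2 0.043 and 0.044 and NQO1 -0.083 and -0.084. On leaving out 1 library, NFE2L2 ran from -0.51 to 0.075, TXN from -0.005 to 0.18, SRXN1 from -0.11 to 0.087 and NQO1 from -0.049 to 0.13. The cause was not tested.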
